A study of Mus musculus with 4 samples.

Results

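The genes described here encode the laminin chains, the integrin subunits, the nidogens, perlecan, agrin and dystroglycan, which are the main parts of the basement membrane and of the receptors by which a cell holds on to it. They were chosen by a rule on symbols that used no measured value, though earlier results of these data were known. The rule took laminin alpha, beta and gamma chains, integrin alpha and beta subunits, and Nid1, Nid2, Hspg2, Agrn and Dag1. Itgae and Lama1 were left out. Reported here are 39 of the 55401 genes in the table, namely 9 laminin chains, 17 integrin alpha subunits, 8 integrin beta subunits and 5 other basement membrane genes. Of these, 31 had enough counts to be tested, among 15580 genes tested in all.

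The study asked what the loss of Haspin, the kinase that phosphorylates histone H3 at threonine 3 in mitosis, does to mouse embryonic stem cells (mESCs). RNA was sequenced from 2 libraries of wild-type (WT) E14 cells and 2 libraries of Haspin-KO E14 cells. The Haspin-KO lines were made with CRISPR/Cas9 and a pair of guide RNAs and grown from single cells, and no label ties a library to one of these lines. E14 is an established mESC line, and both genotypes were grown in medium with serum, LIF and the inhibitor mixture known as 2i, which hold the cells in an undifferentiated state. The study kept its cells on a feeder layer of mouse embryonic fibroblasts for passage or on gelatin for assays, and the surface used for the RNA is not given in the labels. Nothing in the labels says that the libraries of a genotype came from separate cultures, so the p-values measure the spread between these libraries, which may be technical.

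A basement membrane is a thin sheet of matrix built on a laminin network. Each laminin is a trimer of 1 alpha, 1 beta and 1 gamma chain, which polymerizes on the cell surface. Nidogens and perlecan tie this network to type IV collagen, and agrin and perlecan are heparan sulfate proteoglycans that add further binding sites. Cells bind it through integrins, which are pairs of an alpha and a beta subunit, and through dystroglycan. Most alpha subunits of mESCs pair with the beta1 subunit, and laminins and integrins are already made in the early embryo, where the first basement membranes form around the epiblast.

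The counts summed to 21834847 and 17452307 in the WT libraries and to 14207828 and 14436750 in the Haspin-KO libraries. A library was taken as showing a gene only above 3 counts. These were worth 0.137 and 0.173 CPM in WT and 0.209 and 0.210 CPM in Haspin-KO. CPM is the count scaled by the library total after TMM scaling of that total. This floor covers counting error only. Haspin itself had 875 and 619 counts in the WT libraries and 149 and 209 counts in the Haspin-KO libraries, a log2 fold change of -1.60 (SE 0.159, adjusted p = 0.00154 by edgeR's quasi-likelihood test). All 8 mESC markers examined (Pou5f1, Sox2, Nanog, Klf4, Esrrb, Zfp42, Tfcp2l1 and Tdgf1) were tested and 0 of them were called, with summed levels of 5625 and 5875 CPM in WT and 5340 and 5555 CPM in Haspin-KO. Fibroblast markers moved with genotype: of 14 examined, 9 were tested and 6 were called lower, and their summed level was 140 and 109 CPM in WT against 31.5 and 32.7 CPM in Haspin-KO. The count of 6 was 4 with DESeq2, 5 with library totals only and 7 with no filter on low counts. It stayed at 6 with size factors, after thinning to the smallest library total and with a replicate block. It was 2 with at least 10 counts in every library, which removes genes near 0 in Haspin-KO. With limma, which called 0 genes over the whole table, it was 0.

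Levels of different genes were compared in FPKM, the deposited value that divides a count by exonic length and library total. The set ran from the matrix genes among the well expressed to integrins with no reads. At the top stood Lamc1, the gamma1 chain shared by most laminins, with 95.3 and 98.3 FPKM in WT and 102 and 103 FPKM in Haspin-KO. Nid2 and Itgb1 followed, and at the bottom Itgb6 and Itgb8 had 0 counts in every library, which allows a level up to the floor given above. Itga2, Itgad and Itgax had at most 3 counts in every library, and Lamc3, Itgam and Itgb2 had at most 9 in a library. Of the exonic bases of Itgam, 68.7% are shared with Gm49368, so its count may leave out reads of the shared bases.

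**Figure D1:**
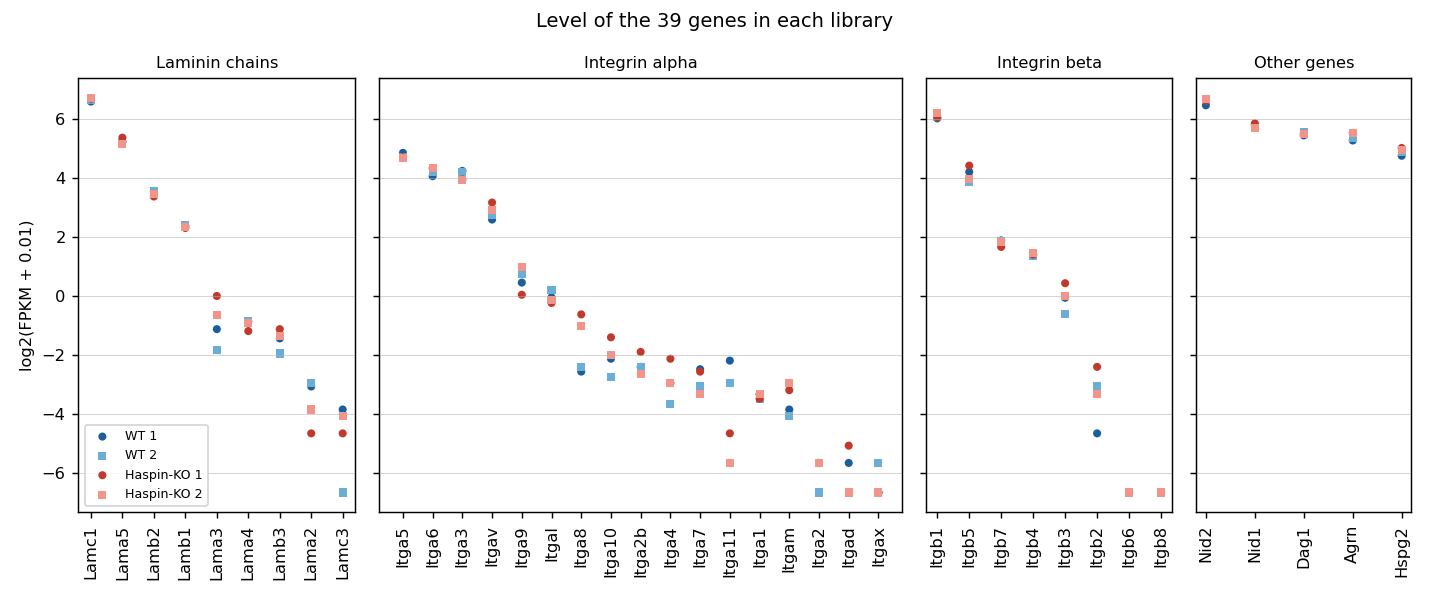
Level of each of the 39 genes in each of the 4 libraries as log2(FPKM + 0.01), ordered within each family by the mean. WT libraries are blue and Haspin-KO libraries red, with circles for replicate 1 and squares for replicate 2. Lamc1 stands highest, and Itgb6 and Itgb8 are at 0 in every library.

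Promoters of 27 of the 39 genes were taken by symbol from a RefSeq table (GRCm38.p6). It holds 250 bases before and 50 bases after a start site. Lamc1 and Nid2, the most abundant of the set, and Itga6 are not among the 27, so the counts below cover a part of the set. They are described by the number of CG pairs, since the mammalian genome has lost most of these outside the promoters of broadly active genes. At least 20 CG pairs, the upper quartile of all 32851 promoters in the table, were found in 9 of the 14 promoters of genes with a mean of at least 1 FPKM and in 1 of the 13 promoters of genes under 1 FPKM, against 26.5% of all promoters. The 1 gene of the second kind was Itga8, which is also the 1 gene of the set called between the genotypes. Its promoter is shown with those of Itga11, the gene with the largest fitted difference in the opposite direction, of Itgb1, the most highly expressed integrin, and of Itgax, a leukocyte integrin at or near 0 here. CG pairs are in capitals, each sequence runs 5′ to 3′ on the strand of its gene, and the regions are chr2:12301895-12302194 (minus strand), chr9:62677605-62677904 (plus), chr8:128685404-128685703 (plus) and chr7:128129300-128129599 (plus).
Itga8: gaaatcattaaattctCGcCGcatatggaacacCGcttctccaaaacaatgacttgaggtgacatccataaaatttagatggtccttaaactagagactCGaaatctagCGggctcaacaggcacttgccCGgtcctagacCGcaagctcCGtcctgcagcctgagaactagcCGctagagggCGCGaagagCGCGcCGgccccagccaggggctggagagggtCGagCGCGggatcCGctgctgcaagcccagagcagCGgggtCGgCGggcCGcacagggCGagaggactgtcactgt
Itga11: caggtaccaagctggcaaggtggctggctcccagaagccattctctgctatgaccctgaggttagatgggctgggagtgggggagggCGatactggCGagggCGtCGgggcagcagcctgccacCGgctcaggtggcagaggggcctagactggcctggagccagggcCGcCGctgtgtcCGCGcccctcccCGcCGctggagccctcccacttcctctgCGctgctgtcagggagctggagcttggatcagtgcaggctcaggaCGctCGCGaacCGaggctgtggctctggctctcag
Itgb1: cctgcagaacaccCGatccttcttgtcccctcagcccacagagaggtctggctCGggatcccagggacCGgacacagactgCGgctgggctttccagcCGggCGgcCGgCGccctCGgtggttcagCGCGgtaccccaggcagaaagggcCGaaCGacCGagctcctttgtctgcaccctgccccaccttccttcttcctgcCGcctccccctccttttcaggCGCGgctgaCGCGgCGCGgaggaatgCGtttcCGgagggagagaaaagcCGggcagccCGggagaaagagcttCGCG
Itgax: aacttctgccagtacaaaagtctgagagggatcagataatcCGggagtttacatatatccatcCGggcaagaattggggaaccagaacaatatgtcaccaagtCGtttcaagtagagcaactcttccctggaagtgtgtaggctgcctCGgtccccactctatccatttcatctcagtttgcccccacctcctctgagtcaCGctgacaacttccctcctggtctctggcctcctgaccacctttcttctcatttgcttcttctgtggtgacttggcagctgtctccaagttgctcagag

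These promoters held 23 CG pairs for Itga8, 16 for Itga11, 27 for Itgb1 and 5 for Itgax. The letters GGGCGG, the core of an Sp1 site and itself a source of a CG pair, stood on either strand in 11 of the 14 promoters of genes of at least 1 FPKM and in 4 of the 13 others, against 35.7% of all promoters. Among the 4 promoters shown, only that of Itgb1 had them. The letters TATAAA were in none of the 27 promoters on either strand, against 13.6% of all promoters. The start site of the table lay within 600 bases of the 5′ end of the deposited gene model for 24 of the 27 genes. It lay 2816 bases away for Lama2, 94295 for Lamb3 and 105002 for Itga9, so these windows may not be the promoters in use. These matches describe letters in a window and say nothing of binding.

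Haspin-KO and WT were compared gene by gene with edgeR's quasi-likelihood test, with p-values adjusted over all genes tested by the Benjamini-Hochberg method, and calls needed an adjusted p under 0.05 together with a fold over 2. Of the 31 genes tested, 1 was called higher in Haspin-KO and 0 were called lower. Over all genes tested, 0.327% were called higher and 0.501% lower. Without the demand on fold, the same 1 gene passed upward and 0 downward, against 0.988% and 1.51% of all genes. At an unadjusted p under 0.05 there were 5 genes higher and 3 lower, against 10.4% of all genes in each direction. DESeq2 called 2 genes higher and 0 lower, and limma on log2(FPKM + 0.1) called 0 in either direction, as it did over the whole table.

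Most of the set differed little between the genotypes. The median log2 fold change, written as Haspin-KO minus WT throughout, was 0.06 over the 31 genes and -0.0039 over all genes tested, and the median of its absolute size was 0.187 and 0.176. The estimate was above 0 for 17 genes and below 0 for 14. Both Haspin-KO libraries lay above both WT libraries in CPM for 10 genes, against 25.3% of all genes tested, and below them for 9 genes, against 26.9%, and the groups overlapped for 12.

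What these libraries could show depended on the counts. For the 15 genes with at least 500 counts in every library, log2 fold changes ran from -0.28 to 0.37 with SEs of 0.0659 to 0.150, and the 95% intervals lay between -0.45 and 0.60, so that all 15 stayed inside a 2-fold difference. For the other 16 tested, SEs ran from 0.122 to 0.691 and the interval stayed inside 2-fold for 6. For the remaining 10, the interval reached past a 2-fold difference in at least 1 direction, so these counts set no such upper limit. Among these, the interval lay wholly beyond 2-fold for Itga8 (1.05 to 2.37) and for Itga11 (-4.50 to -1.40), which was not called.

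**Figure D2:**
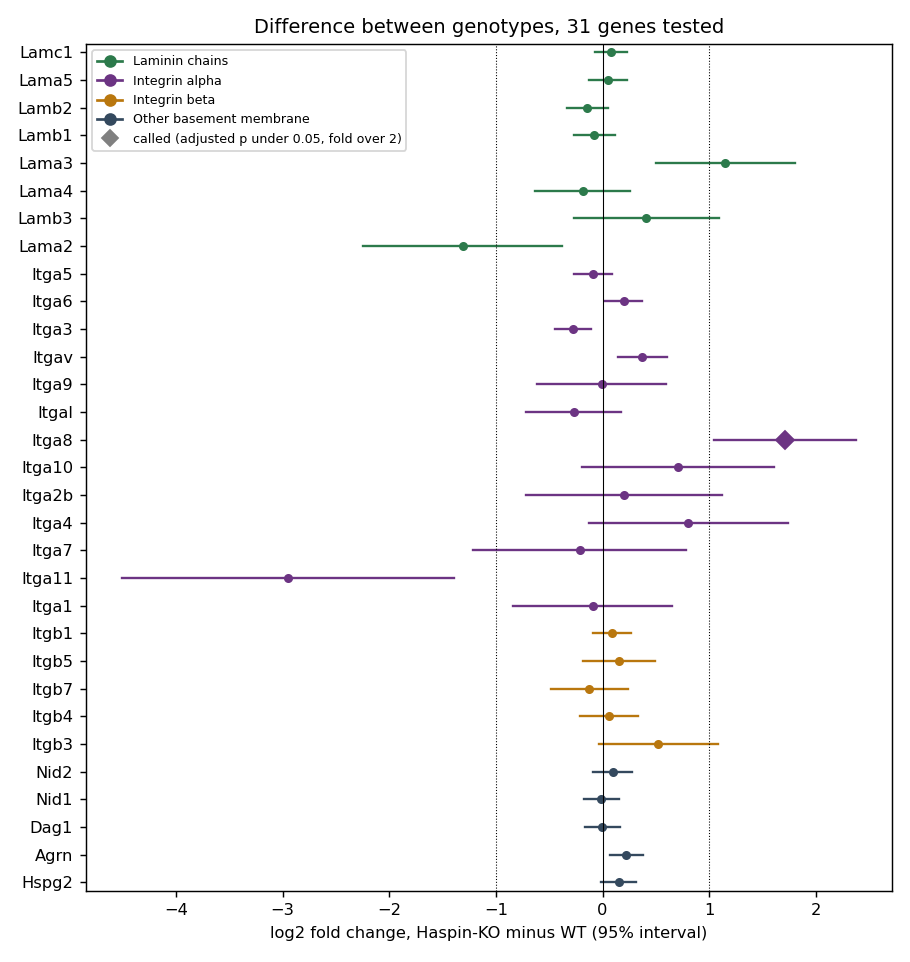
Log2 fold change of each of the 31 genes tested, Haspin-KO minus WT, with its 95% interval. Dotted lines mark a 2-fold difference, colours mark the families, and genes are ordered by level within each family. The widest interval is that of Itga11. The diamond marks Itga8, the 1 gene called.

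Among laminin chains, 8 of 9 were tested and 0 were called. Lama5, the alpha chain of the laminins best known from stem cell culture surfaces, had 37.2 and 35.9 FPKM in WT and 40.9 and 34.9 FPKM in Haspin-KO. The groups overlapped, with a log2 fold change of 0.05 (SE 0.0795, adjusted p = 0.780). Lamc1 lay slightly higher in both Haspin-KO libraries than in both WT libraries, at a log2 fold change of 0.08 (SE 0.0659, adjusted p = 0.525) that did not pass the test. The beta chains that join them were at 5.16 and 5.26 FPKM in WT and 4.91 and 4.99 FPKM in Haspin-KO for Lamb1, and at 11.7 and 11.6 FPKM in WT and 10.3 and 10.9 FPKM in Haspin-KO for Lamb2. Both Haspin-KO libraries lay slightly below both WT libraries for each gene, at log2 fold changes of -0.08 (SE 0.0867, adjusted p = 0.654) and -0.14 (SE 0.0850, adjusted p = 0.369), and neither passed the test.

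Lama3 and Lama2 had the largest fitted differences among the laminins, in opposite directions, and neither was called. Lama3, an alpha chain of epithelial laminin, had 105 and 50 counts in WT and 151 and 97 counts in Haspin-KO. In CPM these were 4.81 and 2.88 in WT and 10.5 and 6.79 in Haspin-KO. The groups did not overlap, but the libraries of each genotype differed widely, and the log2 fold change of 1.15 (SE 0.290, 95% interval 0.50 to 1.80) had an adjusted p of 0.0711. Without Haspin-KO replicate 2 it would have been called (1.43, adjusted p = 0.000244), as it was with DESeq2 (1.16, adjusted p = 0.0391), while without Haspin-KO replicate 1 or WT replicate 2 it was under a 2-fold difference (0.80 and 0.85). Lamb3, the beta chain that it pairs with, was not called and was at 0.41 (SE 0.301, adjusted p = 0.471) with 52 and 29 counts in WT and 42 and 36 in Haspin-KO.

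Lama2, the alpha chain of the laminin of muscle and of other mesenchymal tissues, had 41 and 34 counts in WT and 7 and 15 counts in Haspin-KO. Both Haspin-KO libraries lay below both WT libraries, at a log2 fold change of -1.31 (SE 0.416, 95% interval -2.25 to -0.38, adjusted p = 0.122). Without Haspin-KO replicate 2 it would have been called (-1.96, adjusted p = 0.0383), and without Haspin-KO replicate 1 it was under a 2-fold difference (-0.86). Lama4, the alpha chain of vascular and adipose laminins, had 143 and 114 counts in WT and 74 and 91 counts in Haspin-KO, with a log2 fold change of -0.19 (SE 0.199, adjusted p = 0.633). Lamc3, which was not tested, had 8 and 0 counts in WT and 3 and 4 in Haspin-KO.

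Integrin alpha subunits held the 1 gene called. Itga8, whose product pairs with integrin beta1 to bind nephronectin and fibronectin through the RGD motif, had 26 and 23 counts in WT and 67 and 51 counts in Haspin-KO. In CPM these were 1.19 and 1.33 in WT and 4.67 and 3.57 in Haspin-KO. Every Haspin-KO library stood well above every WT library, and the 2 WT libraries were nearly equal. The log2 fold change was 1.71 (SE 0.295, 95% interval 1.05 to 2.37), a fold of 3.27, with an adjusted p of 0.0216. The level stayed low in all libraries, at 0.16 and 0.18 FPKM in WT and 0.64 and 0.48 FPKM in Haspin-KO. Without WT replicate 1 the adjusted p was 0.133 and without WT replicate 2 it was 0.101, at log2 fold changes of 1.62 and 1.79, while over the alternatives of scaling, filter, depth and tool that tested it on all 4 libraries it lay between 7.75e-05 and 0.0271.

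Itga8 (ENSMUSG00000026768) lies at chr2:12106632-12301922 on the minus strand (mm10) and has 33 exons after merging those of its transcripts. Of its 7368 exonic bases, 372 (5.05%) are shared with the antisense gene E030013I19Rik, which had 3 and 0 counts in WT and 0 and 0 in Haspin-KO. The strand setting of the read counting is not given in the sources used here, so reads of the pair could not be told apart. Of the ligands named above for this integrin, Npnt, which encodes nephronectin, had 220 and 200 counts in WT and 231 and 168 in Haspin-KO. Its log2 fold change was 0.37 (SE 0.180, adjusted p = 0.277). Fn1, which encodes fibronectin, was at 0.02 (SE 0.0688, adjusted p = 0.901). A wider list of integrin ligands, read further below, also held Tnc and Spp1, which encode a tenascin and osteopontin. Tnc was called lower at -6.53 (SE 0.312, adjusted p = 1.66e-05), and it lay lower together with the fibroblast markers. Spp1 was at 0.18 (SE 0.172, adjusted p = 0.576).

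Itga11, a receptor for fibrillar collagen, had the largest fitted difference of the set, at very low counts. It had 23 and 11 counts in WT and 2 and 1 counts in Haspin-KO. Neither Haspin-KO library was above the floor of 3 counts. The ratio of WT to Haspin-KO by summed counts and TMM-scaled totals was 8.29, with a 95% counting interval of 2.61 to 42.2. The fitted log2 fold change of -2.95 (SE 0.691) had an adjusted p of 0.0586. Itga11 lay lower together with the fibroblast markers: Col1a1 and Col1a2, which encode the chains of type I collagen, had 1063 and 575 and 645 and 419 counts in the WT libraries and 24 and 24 and 7 and 7 counts in the Haspin-KO libraries. In bulk RNA, fewer cells of a type and less RNA per cell cannot be told apart.

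The fibroblast list as a whole bears on Itga11 and Lama2 because both genes are known from mesenchymal cells. Called lower were Col1a2, Col1a1, Col3a1, Postn, Prrx1 and Tagln, and Postn had 171 and 77 counts in WT and 0 in both Haspin-KO libraries, at least 29.3-fold lower against 3 counts in each Haspin-KO library. Pdgfrb passed the adjusted p at -0.85 (SE 0.176, adjusted p = 0.0392) without reaching a 2-fold difference, and Thy1 and Fbn1 were at -0.51 and -0.10 on the log2 scale and were not called. Lum was at 0 in every library, and 3 of the 14 were at or under the floor in all. The part of these cells in the values of Itga11 and Lama2 was not tested.

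**Figure D3:**
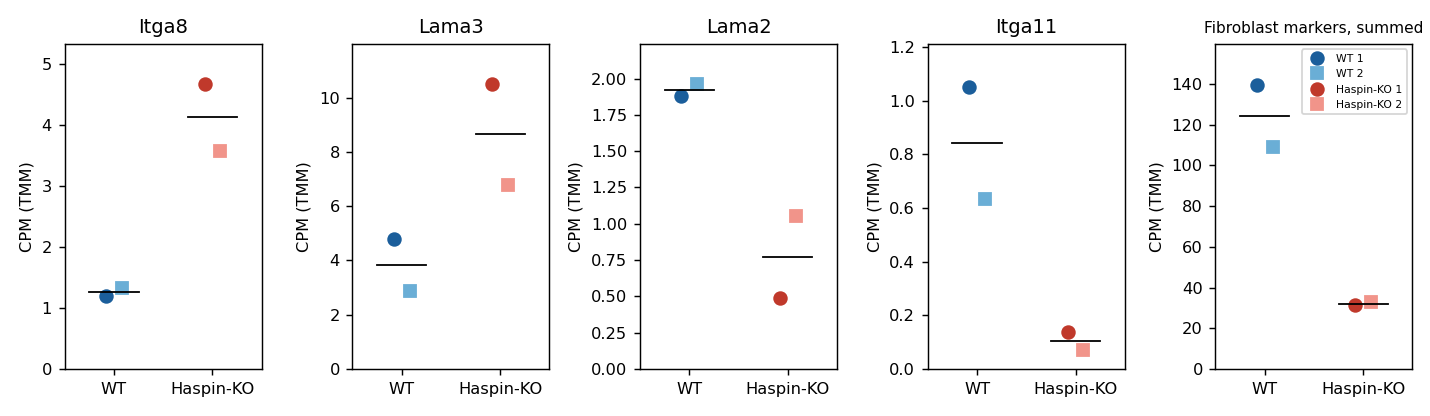
CPM after TMM scaling of the 4 genes with a fitted fold over 2 and of the 14 fibroblast markers summed, in each library, with the mean of each genotype as a bar. Itga8 and Lama3 are higher and Lama2, Itga11 and the fibroblast sum are lower in both Haspin-KO libraries than in both WT libraries. Of the 4 genes, Itga8 was called.

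The laminin-binding alpha subunits Itga3, Itga6 and Itga7 did not share a direction. Itga6, which pairs with beta1 or beta4 and is a common surface marker of stem cells, had 16.6 and 18.1 FPKM in WT and 19.99 and 19.91 FPKM in Haspin-KO. Itga3, a receptor for several epithelial laminins, had 18.8 and 18.1 FPKM in WT and 15.4 and 15.1 FPKM in Haspin-KO. The groups did not overlap for either gene, in opposite directions, with log2 fold changes of 0.20 (SE 0.0768, adjusted p = 0.186) for Itga6 and -0.28 (SE 0.0766, adjusted p = 0.0875) for Itga3. Itga7, the partner of beta1 in muscle, had 30 and 15 counts in WT and 18 and 10 in Haspin-KO and overlapped between the genotypes.

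Of the 4 RGD-binding alpha subunits, Itga5 was the most abundant of all alpha subunits. This fibronectin receptor had 28.6 and 25.8 FPKM in WT and 25.9 and 25.4 FPKM in Haspin-KO. Its log2 fold change was -0.09 (SE 0.0792, adjusted p = 0.550), and WT replicate 2 was nearly level with both Haspin-KO libraries. Itgav, the shared alpha subunit of the vitronectin receptors, had 5.99 and 6.61 FPKM in WT and 8.93 and 7.43 FPKM in Haspin-KO. Its groups did not overlap, and its log2 fold change of 0.37 (SE 0.101, adjusted p = 0.0854) was the largest among the 15 well-counted genes. Itga2b, the platelet subunit, was at 0.20 (SE 0.408) with at most 21 counts in a library.

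The collagen-binding subunits other than Itga11 were scarce in every library. Itga1 had 37 and 26 counts in WT and 20 and 23 in Haspin-KO, and Itga10 had 25 and 13 in WT and 27 and 18 in Haspin-KO. Their log2 fold changes were -0.09 (SE 0.332) and 0.71 (SE 0.400), with adjusted p of 0.907 and 0.347, and 33.5% of the exonic bases of Itga10 are shared with Gm42957. Itga4 and Itga9, which bind fibronectin, VCAM1 or tenascin, were at 0.80 (SE 0.415) and -0.01 (SE 0.271). Itga9 differed more within Haspin-KO than between the genotypes, with 111 and 219 counts there and 229 and 222 counts in WT.

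Leukocyte integrins were read separately, since mESC cultures should hold no blood cells. Of Itgal, Itgam, Itgax and Itgad, only Itgal was tested, with 137 and 130 counts in WT and 78 and 85 counts in Haspin-KO. Its log2 fold change was -0.27 (SE 0.198, adjusted p = 0.473). Itgb2, its partner, had 2 and 6 counts in WT and 8 and 4 in Haspin-KO, and was not tested. The leukocyte markers Ptprc and Tyrobp were at 0 in all libraries, and of the 6 examined 2 were tested (Spi1 and Laptm5) and 0 were called, with summed levels of 198 and 216 CPM in WT and 210 and 224 CPM in Haspin-KO that came almost wholly from Laptm5.

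Among integrin beta subunits, 5 of 8 were tested and 0 were called. Itgb1, the partner of most of the alpha subunits above, had 64.2 and 66.4 FPKM in WT and 65.9 and 72.9 FPKM in Haspin-KO. It stood above every alpha subunit in each library. The log2 fold change was 0.08 (SE 0.0793, 95% interval -0.09 to 0.26, adjusted p = 0.583). Itgb5, which pairs with alpha v, had 18.3 and 14.4 FPKM in WT and 21.2 and 15.4 FPKM in Haspin-KO, and Itgb7 had 3.67 and 3.62 FPKM in WT and 3.15 and 3.55 FPKM in Haspin-KO. Their log2 fold changes of 0.16 (SE 0.150) and -0.12 (SE 0.160) did not pass the test, with adjusted p of 0.590 and 0.701.

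Itgb4 and Itgb3 were the other beta subunits tested. Itgb4, the partner of alpha6 in hemidesmosomes, had 401 and 308 counts in WT and 262 and 277 in Haspin-KO, at a log2 fold change of 0.06 (SE 0.122, adjusted p = 0.826). Itgb3, which pairs with alpha v and with the platelet subunit, had 123 and 66 counts in WT and 112 and 84 in Haspin-KO. In CPM both Haspin-KO libraries lay above both WT libraries for Itgb3, but its log2 fold change of 0.52 (SE 0.249, adjusted p = 0.268) did not pass the test.

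All 5 other basement membrane genes were tested, were among the best counted of the set, and 0 were called. Nid2, one of the pair of nidogens, had 87.2 and 98.3 FPKM in WT and 96.8 and 102 FPKM in Haspin-KO. Nid1, the other, had 55.4 and 52.9 FPKM in WT and 57.1 and 50.8 FPKM in Haspin-KO. Both overlapped between the genotypes, with log2 fold changes of 0.09 (SE 0.0808) and -0.01 (SE 0.0734). Dag1, whose single product is cut into the alpha and beta parts of dystroglycan, had 43.1 and 46.1 FPKM in WT and 44.7 and 44.6 FPKM in Haspin-KO. Its estimate of -0.00097 (SE 0.0712) changed sign with the scaling of the libraries.

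The proteoglycan genes differed most among these 5. Agrn had 38.3 and 40.2 FPKM in WT and 45.7 and 46.1 FPKM in Haspin-KO, and Hspg2, which encodes perlecan, had 26.7 and 29.3 FPKM in WT and 32.1 and 30.3 FPKM in Haspin-KO. Both Haspin-KO libraries lay above both WT libraries for each gene. The log2 fold changes were 0.22 (SE 0.0685, 95% interval 0.07 to 0.38, adjusted p = 0.115) for Agrn and 0.15 (SE 0.0733, 95% interval -0.01 to 0.32, adjusted p = 0.273) for Hspg2.

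Libraries of one genotype differed from each other most in the scarce genes. The log2 ratio of CPM between the libraries of a genotype was over 0.5 in absolute size for 7 of the 31 genes in WT and 8 in Haspin-KO, against 11.9% and 15.4% of all genes tested. In WT these were Itga4, Lama3, Itga11, Itga7, Itga10, Itgb3 and Lamb3, with mean levels of at most 4.72 CPM. In Haspin-KO they were Lama2, Itga11, Itga9, Itga4, Itga7, Itga2b, Lama3 and Itga10, of which Itga9 had the highest mean level at 11.5 CPM. Itga8, the gene called, was not among them, but its test used this same spread, so this is not separate support for the call.

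**Figure D4:**
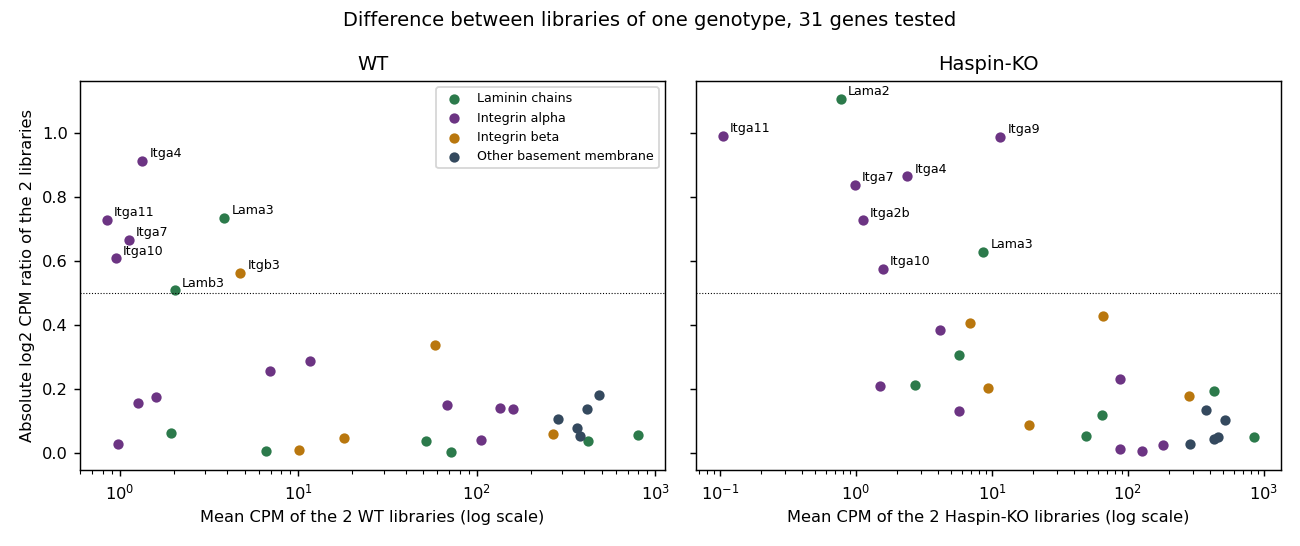
Absolute log2 ratio of CPM between the 2 libraries of WT (left) and of Haspin-KO (right) against the mean CPM of the genotype on a log scale, for the 31 genes tested. Genes above the dotted line at 0.5 are named, and in both panels they lie at or below a mean of 11.5 CPM.

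Genes that work with the set were read from lists chosen by function. Of 9 basement membrane collagens 5 were tested, and Col4a5, a chain of the alpha3-alpha4-alpha5 and alpha5-alpha6 networks of type IV collagen, was called lower with 56 and 46 counts in WT and 9 and 4 in Haspin-KO (log2 fold change -2.50, SE 0.421, adjusted p = 0.0198). Col4a1, a chain of the network that laminins are tied to in most tissues, lay higher at 0.40 (SE 0.0815, adjusted p = 0.0359), short of a 2-fold difference. Its partner Col4a2, which is transcribed from the same promoter region, was at 0.33 (SE 0.122, adjusted p = 0.172). The median log2 fold change of the 5 collagens was 0.13.

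Of 18 other basement membrane proteins 12 were tested and 1 was called. Fbln2, which encodes the laminin- and nidogen-binding fibulin-2, had 808 and 429 counts in WT and 19 and 8 in Haspin-KO, a log2 fold change of -5.03 (SE 0.321, adjusted p = 9.46e-05). The other 11 ran from -0.18 to 0.59 on the log2 scale. Of 18 integrin ligands 14 were tested and 2 were called lower, and their median log2 fold change was -0.16. Tnc, a tenascin bound by several integrins, alpha9 and alpha v among them, had 494 and 303 counts in WT and 3 and 3 in Haspin-KO. Thbs1, a thrombospondin bound by alpha v beta3, had 1953 and 1073 counts in WT and 68 and 48 in Haspin-KO. The receptor subunits Itga9, Itgav and Itgb3 were at -0.01, 0.37 and 0.52 as given above. Col4a5, Fbln2, Tnc and Thbs1 all lay lower in the same libraries as the fibroblast markers, whose part in their values was not tested.

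Inside the cell, integrins act through talins, kindlins, the ILK complex and focal adhesion kinases. All 36 genes of a list of such adaptors were tested and 0 were called, with a median log2 fold change of -0.03 and a range of -0.77 (Tgfb1i1, adjusted p = 0.103) to 1.05 (Fermt1, which had at most 16 counts, adjusted p = 0.197). Of 25 dystroglycan partners and enzymes that add its sugar chains, 21 were tested and 0 were called, with a median of -0.07. Sntb2, a syntrophin, passed the adjusted p alone at 0.41 (SE 0.0811, adjusted p = 0.0332), while Utrn and Dmd, which link dystroglycan to actin, were at 0.34 (adjusted p = 0.0705) and 0.22 (adjusted p = 0.158).

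**Figure D5:**
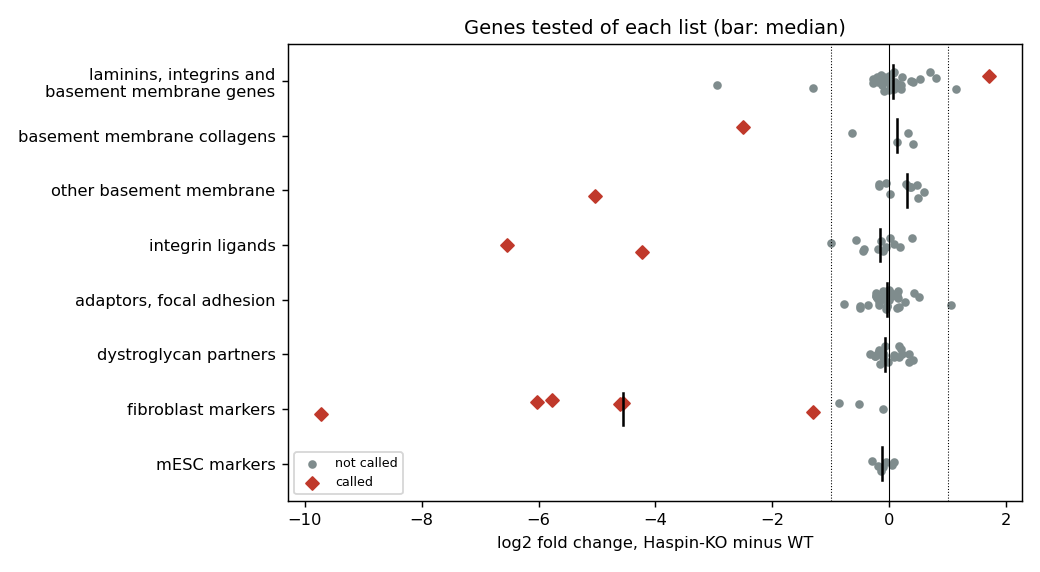
Log2 fold change, Haspin-KO minus WT, of every gene tested in the set and in 5 related lists and 2 marker lists, with the median as a bar, called genes as red diamonds and dotted lines at a 2-fold difference. The called genes of the collagen, basement membrane and ligand lists all lie at or below -2.50, and all belong to the genes called lower.

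By the deposited KEGG annotation, 28 of the tested genes belonged to ECM-receptor interaction, in which 62 genes were tested and 10 called. The 1 called gene of the set was Itga8, the 1 called higher, and the other 9, all called lower, were matrix genes and Cd44, the hyaluronan receptor. In focal adhesion, 183 genes were tested and 12 called, of which Itga8 was again the 1 from the set and the 1 called higher. Over all genes tested, 0.327% were called higher and 0.501% lower. Among the genes called lower in both pathways were the fibroblast markers Col1a1, Col1a2 and Col3a1, and also Col4a5, Thbs1 and Tnc. The part of fibroblasts in these pathway counts was not tested. Markers of other cells that make much basement membrane gave no call. Of 8 primitive endoderm markers 5 were tested and 0 called. Their sums were 42.0 and 34.3 CPM in WT and 44.1 and 31.0 CPM in Haspin-KO. Estimates were above 0 for 3 and below 0 for 2, with the smallest p for Cubn (1.36, adjusted p = 0.143). Of 5 endothelial markers 3 were tested and 0 called, with all 3 estimates above 0 (median 0.54), sums of 17.2 and 20.7 CPM in WT and 24.7 and 27.1 CPM in Haspin-KO, and the smallest p for Tek (0.54, adjusted p = 0.0869). Of 4 markers of stratified epithelium 2 were tested and 0 called. They went in opposite directions, Trp63 at 1.12 (adjusted p = 0.223) and Col17a1 at -1.07 (adjusted p = 0.260).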

How the data were processed

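RNA-seq of 2 WT and 2 Haspin-KO libraries of E14 mESCs was used, grouped and numbered by the sample labels. Per the study's methods, the authors trimmed reads with Cutadapt (1.9.1) and mapped them to mm10 with HISAT2 (2.0.1), and the submitters' processing notes also list HTSeq (0.6.1) and DESeq2. The deposited values are raw counts per gene, without normalization, and FPKM values that the authors computed from them: FPKM equals the count divided by exonic length and library total in 100% of values within rounding. The strand setting and the annotation release are not given in the sources used here. The start and end of all 39 genes matched GENCODE M21, and 14 of them share exonic bases with another gene.

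Counts were fitted over the whole table by the quasi-likelihood test of edgeR (4.0.16, R 4.3.3) after its low-count filter and TMM scaling, with genotype as the 1 term. An SE is the estimate over the root of F. Calls took a p adjusted by Benjamini-Hochberg under 0.05 together with a fold over 2. A minimum of 3 counts in a library was taken as the floor. Alternatives were DESeq2 (1.42.0), limma (3.58.1) on log2(FPKM + 0.1) for genes of at least 0.5 FPKM in 2 libraries, DESeq2's size factors, library totals, no filter, at least 10 counts in every library, thinning to the smallest total, a replicate block, and leaving out each library. The libraries of a genotype differed beyond counting noise (chi-square per degree of freedom 7.12 in WT and 5.51 in Haspin-KO). The fits were tested on simulated data.

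The genes described and the lists beside them were chosen with earlier results of these data known, and 1 gene that the choice by symbol would add is not reported here. Values in every library are given for genes called, with an adjusted p under 0.05 or with a fitted fold over 2, and for the 3 most abundant of each family. The others are given by range or count, or with values where a family has few tested. Of each list, called genes and those with the smallest p are named. The cell type markers were lists for mESCs, fibroblasts, primitive endoderm, endothelium, leukocytes and stratified epithelium. Promoters came from a RefSeq table of GRCm38.p6, and only letters of the plain motifs were searched.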

Additional observations from a re-analysis of the deposited data

How the results depend on the processing

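Of 359 values of single genes under the alternatives, 331 kept their direction and their call or lack of one, 2 lost the call (Itga8 with either WT library left out), 9 gained it and 17 changed sign. Of the set, 0 genes were called lower and 1 higher. DESeq2 called 2 higher (Itga8 and Lama3), limma 0 (it held 22 of the genes, without Itga8), and the fit with no filter 2 higher and 2 lower (Itga11 and Lama2). Leaving out 1 library gave 0 to 2 called higher and 0 to 1 called lower, with 0 higher with either WT library left out and 2 higher and 1 lower without Haspin-KO replicate 2. The 4 genes of the related lists called lower became 0 with limma and 1 with at least 10 counts in every library, which removes genes near 0 in Haspin-KO. The median log2 fold change of 0.06 was 0.031 with no filter, 0.083 after thinning and 0.015 to 0.056 with 1 library left out (lowest without Haspin-KO replicate 1). Dag1, at -0.00097, was at 0.0039 with limma, 0.0052 with size factors, 0.0036 with library totals and 0.00048 with at least 10 counts. With 1 library left out it ran from -0.059 to 0.055, Nid1 from -0.077 to 0.052, Lama5 from -0.051 to 0.14, Itgb5 from -0.073 to 0.35, Itga7 from -0.69 to 0.17, Itgb1 from -0.012 to 0.17, Itga2b from -0.20 to 0.51, Itga9 from -0.59 to 0.40 and Itga1 from -0.21 to 0.0095. The cause was not tested. Over all genes, 51 were called higher and 78 lower, against 125 and 140 with no filter, 47 and 42 with DESeq2, 0 and 0 with limma, 52 and 36 with at least 10 counts in every library, and 17 to 157 and 37 to 150 with 1 library left out.

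With the replicate block, 2 of the genes were called higher (Itga8 and Lama3) and 2 lower (Itga11 and Lama2), 9 had an adjusted p under 0.05, and 240 and 167 of all genes were called. The libraries share only a number: 2 numbers per genotype cannot show a pairing, and the replicate differences of WT and Haspin-KO correlated at 0.289 across genes, which are not independent replicates.

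Groups of 2 libraries were too small for a test of outlying libraries, and genes under about 500 counts carried intervals that often reached past 2-fold.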
